A study of Mus musculus with 2 samples.

Results

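The 9 genes described here encode feedback inhibitors of the ERK pathway: the dual-specificity phosphatases Dusp1, Dusp4, Dusp5 and Dusp6, the Sprouty proteins Spry1, Spry2 and Spry4, and the Spred proteins Spred1 and Spred2. They were taken as the genes whose symbol the array's annotation gives, alone, to a probe set, which yielded 24 probe sets of the 45101 on the array and 9 of the 18193 genes measured. RNA came from primary endothelial cells, the lining cells of blood vessels, cultured from C57/BL6 mouse embryos in mid-gestation (E10.5). The Snail1 KO cells were given an adenovirus carrying the Cre recombinase and the WT cells one carrying β-galactosidase, and both carried a floxed Snail1 allele (Snail1 f/f), were grown with 20% fetal bovine serum and a cocktail of endothelial growth factors, and were left to recover for days before RNA was taken. Each group holds 1 array. There is therefore no estimate of the variation between cultures, no difference below was tested, and loss of Snail1 and effects of Cre or of the virus cannot be told apart. The sources used here do not give the virus dose, how many embryos contributed cells or whether cells were pooled.

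Growth factors activate receptor tyrosine kinases, which switch on RAS and, through the kinases RAF and MEK, the kinase ERK. Active ERK raises transcription of its own inhibitors, so that transcripts of this group are widely read as a record of recent ERK activity as well as brakes on it. DUSP proteins remove the activating phosphates from MAP kinases, Sprouty proteins interrupt the signal between receptor and RAF, and SPRED proteins recruit neurofibromin, which switches RAS off. In endothelium this circuit lies downstream of VEGF and FGF receptors, and Sprouty and Spred proteins are known there as restraints on vessel growth.

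None of the 9 genes differed by as much as 2-fold between the arrays, and their differences pointed both ways. In the brightest probe set of each gene, 5 were higher on the Snail1 KO array and 4 lower, with a median log2 difference (Snail1 KO minus WT) of 0.017, against -0.0083 over all 12874 analysed genes. On the Snail1 KO array Dusp5 and Spry2 were lower, 1.57-fold and 1.48-fold, and Dusp6 was 1.49-fold higher. Those 3 genes lay beyond 0.32 log2 units, the robust SD of the difference over all analysed genes, and the other 6 lay within it. Over all analysed genes 33.4% lay beyond that size, so the share among these 9 was close to it. At 2-fold, 0 of 9 were higher on the Snail1 KO array against 0.971% of all analysed genes, and 0 of 9 were lower against 1.84%. At 1.5-fold, 0 of 9 were higher against 5.06%, and 1 of 9, Dusp5, was lower against 6.08%. The median size of the difference, whatever its sign, was 0.21 log2 units for the 9 genes and 0.22 for all analysed genes.

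Snai1, the targeted gene, had a log2 value of 3.59 on the Snail1 KO array, below the filter level of 3.97 (the 40th percentile of probe set means), and 5.33 on the WT array in its single probe set. It was lower on the Snail1 KO array by a size that is not exact. The labels do not say which exons are floxed, so its probes may lie outside the deleted part.

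The sequence just upstream of the transcription start is shown for Dusp5, Spry2 and Dusp6, because they had the largest differences of the group. Each is 250 bases long, from the RefSeq promoter windows of build GRCm38.p6, printed 5′ to 3′ on the gene's strand and ending at the base before the start site. Capitals mark CArG boxes in Dusp5, the element bound by serum response factor, and E-boxes (CANNTG) in Spry2 and Dusp6, the general element of which Snail proteins bind the form CAGGTG.
Dusp5 (chr19:53528895-53529144, plus strand): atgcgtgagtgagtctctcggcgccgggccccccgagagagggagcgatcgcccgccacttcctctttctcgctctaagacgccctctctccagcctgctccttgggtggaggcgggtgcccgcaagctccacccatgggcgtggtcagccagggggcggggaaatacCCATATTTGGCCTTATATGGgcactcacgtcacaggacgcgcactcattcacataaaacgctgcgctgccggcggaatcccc
Spry2 (chr14:105896820-105897069, minus strand): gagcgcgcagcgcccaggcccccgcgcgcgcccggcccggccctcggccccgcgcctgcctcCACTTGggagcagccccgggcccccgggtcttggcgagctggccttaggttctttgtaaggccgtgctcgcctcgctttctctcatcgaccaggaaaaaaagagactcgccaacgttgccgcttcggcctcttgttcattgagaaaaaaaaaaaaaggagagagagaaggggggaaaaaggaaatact
Dusp6 (chr10:99262981-99263230, plus strand): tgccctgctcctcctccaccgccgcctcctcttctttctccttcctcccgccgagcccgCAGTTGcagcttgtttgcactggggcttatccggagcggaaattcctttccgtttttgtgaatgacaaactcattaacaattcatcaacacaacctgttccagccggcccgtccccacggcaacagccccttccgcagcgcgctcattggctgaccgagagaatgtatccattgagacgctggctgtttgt

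The table held a window of 250 bases before to 50 bases after the start for 7 of the 9 genes. Dusp4 and Spry4 had no entry. On both strands, CAGGTG occurred in 0 of the 7 windows and in 20.2% of all 32851 windows, while the Snai1 window held 1 copy, read as CACCTG at 126 to 121 bases before the start. The looser E-box CANNTG, which includes CAGGTG, occurred in 4 of the 7 windows (Dusp1, Dusp6, Spry1 and Spry2) and in 72.3% of all windows. A CArG box occurred in 1 of the 7, that of Dusp5, and in 1.63% of all windows. Dusp5 held 2 copies side by side, at 82 to 73 and at 72 to 63 bases before the start. The full cyclic AMP response element TGACGTCA occurred in 1 of the 7, that of Dusp1, and in 1.79% of all windows. The ETS element CCGGAA occurred in 1 of the 7, that of Spry2, within the transcribed bases after the start, and in 14.9% of all windows. A match is not a binding site, and no match says only that these letters are not in this window.

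**Figure D1:**
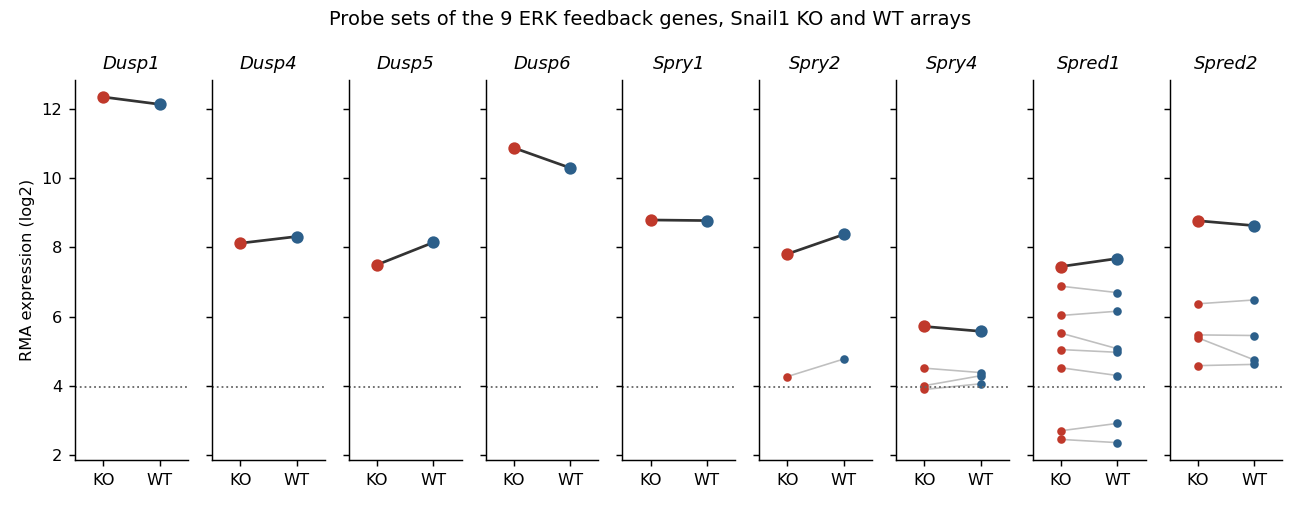
RMA expression (log2, vertical axis) of all 24 probe sets of the 9 genes on the Snail1 KO array (red, left) and the WT array (blue, right), 1 array each, with a line joining the values of each probe set. Large points and dark lines mark each gene's brightest probe set and the dotted line the filter level of 3.97. The lines of Dusp5 and Spry2 are lower at the Snail1 KO end, that of Dusp6 is higher there, and the others are nearly level or differ between probe sets.

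Among the phosphatases, the nuclear and growth factor-inducible Dusp5, which acts selectively on ERK, was at 7.49 on the Snail1 KO array and 8.14 on the WT array. Its log2 difference of -0.65 was larger in size than that of 91.2% of the analysed genes. Dusp6, the cytoplasmic ERK-selective phosphatase, was at 10.87 on the Snail1 KO array and 10.29 on the WT array. Its difference of 0.58 exceeded in size that of 88.6% of analysed genes and had the opposite sign. The differences of these ERK-selective phosphatases lay 1.23 log2 units apart on the same arrays. They were the lowest and highest of the 9 genes in their brightest probe sets, and the gap was not compared with that of other pairs. Dusp5 and Dusp6 were each measured by 1 probe set, so neither difference has a second probe set to set beside it.

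Dusp1, a nuclear phosphatase of p38, JNK and ERK that is induced by stress and glucocorticoids, was at 12.33 on the Snail1 KO array and 12.12 on the WT array. Dusp4, another inducible nuclear phosphatase, was at 8.11 on the Snail1 KO array and 8.31 on the WT array. Their differences of 0.21 and -0.19 were within the robust SD and near the middle of the size distribution, larger than those of 49.2% and 45.7% of analysed genes. Each also had a single probe set. The 4 phosphatases were thus split evenly, with Dusp1 and Dusp6 higher and Dusp4 and Dusp5 lower on the Snail1 KO array.

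Of the Sprouty genes, Spry2 stood apart from Spry1 and Spry4 in size. The brightest Spry2 probe set was at 7.80 on the Snail1 KO array and 8.37 on the WT array, a difference of -0.57, larger in size than that of 87.9% of analysed genes. Its other, dimmer probe set was at 4.27 on the Snail1 KO array and 4.77 on the WT array, a difference of -0.51. Of the 4 genes with several probe sets, Spry2 alone had every one beyond the robust SD, and both had the same sign. Spry1, which in mice also acts in kidney development through the receptor RET, was at 8.78 on the Snail1 KO array and 8.77 on the WT array in its single probe set. Its difference of 0.017 was smaller in size than that of most genes, exceeding 4.40% of them, and its sign turned when each array was centred on its median (-0.021).

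Spry4 was measured by 4 probe sets, all above the filter level but dim. The dimmest had a mean of 3.977 against a filter level of 3.971, and its Snail1 KO value was below that level. The brightest was at 5.71 on the Snail1 KO array and 5.57 on the WT array, a difference of 0.14. The other 3 were at 4.51, 4.004 and 3.89 on the Snail1 KO array, against 4.38, 4.29 and 4.06 on the WT array in the same order of probe sets. Their differences were 0.13, -0.29 and -0.16. The probe sets split 2 to 2 by sign, all lay within the robust SD, and no direction can be given for Spry4.

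Spred1, a gene whose loss in humans causes Legius syndrome, had 8 probe sets, of which 6 were above the filter level. The brightest was at 7.44 on the Snail1 KO array and 7.67 on the WT array, a difference of -0.23. The next 2 were at 6.87 and 6.03 on the Snail1 KO array, against 6.69 and 6.15 on the WT array, differences of 0.19 and -0.12. The dimmest 3 above the filter were at 5.52, 5.05 and 4.52 on the Snail1 KO array, against 5.07, 4.97 and 4.30 on the WT array. These last 3 were all higher on the Snail1 KO array, by 0.45, 0.079 and 0.22. The 2 probe sets below the filter level were at 2.70 and 2.45 on the Snail1 KO array and 2.92 and 2.36 on the WT array. Over the 8 probe sets 5 differences were positive and 3 negative, and their mean was 0.058, opposite in sign to the brightest probe set. Probe sets of 1 gene share the same RNA and are not replicates.

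Spred2 had 5 probe sets, all above the filter level. The brightest was at 8.76 on the Snail1 KO array and 8.62 on the WT array, a difference of 0.14. Of the others, 3 differed by no more than 0.11 in size: they were at 6.37, 5.47 and 4.58 on the Snail1 KO array, against 6.48, 5.45 and 4.62 on the WT array. The remaining one was at 5.39 on the Snail1 KO array and 4.75 on the WT array. Its difference of 0.64 was the highest of the 24 probe sets and stood apart from the other 4 of its gene, which ranged from -0.11 to 0.14.

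Over all 24 probe sets, 13 were higher and 11 lower on the Snail1 KO array, the differences ran from -0.65 (Dusp5) to 0.64 (a Spred2 probe set), and 0 reached 2-fold. The filter level left 22 of the 24 probe sets. All 9 genes passed it in their brightest probe set, so no gene is missing from the counts above.

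**Figure D2:**
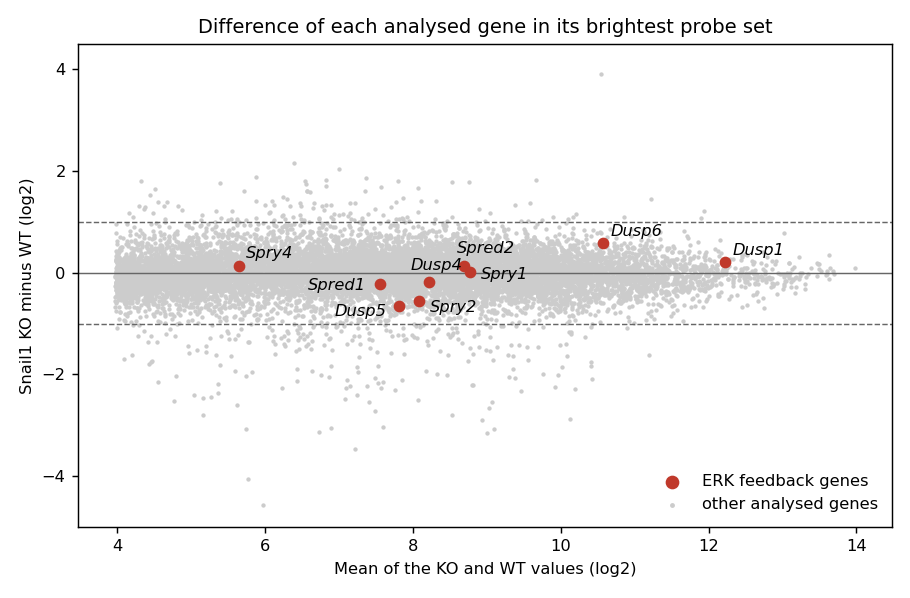
Log2 difference, Snail1 KO minus WT (vertical axis), against the mean log2 value of both arrays (horizontal axis) for each of the 12874 analysed genes in its brightest probe set. Red points are the 9 ERK feedback genes, grey points all other analysed genes, the solid line is no difference and dashed lines are 2-fold. The red points lie inside the dashed lines, between -0.65 for Dusp5 and 0.58 for Dusp6.

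The kinase cascade that these inhibitors act on differed little. Of 22 genes listed for the core ERK cascade and its adaptors, 16 were analysed, 7 higher and 9 lower on the Snail1 KO array, with a median of -0.054 (0.092 with the mean of each gene's probe sets) and none past 2-fold in its brightest probe set. The other 6 were not analysed here. Rras2, a RAS-related GTPase, was at 10.52 on the Snail1 KO array and 11.11 on the WT array, a difference of -0.59, with -0.44 in its other probe set. Gab1, an adaptor that carries receptor signals to RAS, was at 8.32 on the Snail1 KO array and 7.74 on the WT array, a difference of 0.59, with 0.32 and 1.18 in its other 2. Both genes thus kept their sign in every probe set. Ksr1, a scaffold of RAF and MEK, differed by 0.34 and Map2k2, which encodes a MEK kinase, by -0.33. A dim Ksr1 probe set had the opposite sign, at -0.11.

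Of 18 receptor tyrosine kinase genes, 17 were analysed, 8 higher and 9 lower on the Snail1 KO array. Their median was -0.021, and none was past 2-fold. With the mean of each gene's probe sets the median was 0.20, over the 14 genes that then passed the filter. Axl, the GAS6 receptor, was at 5.51 on the Snail1 KO array and 6.34 on the WT array, a difference of -0.84, with 0.36 in a probe set below the filter level. The VEGF receptor gene Flt1 differed by -0.74, with -0.64, -0.31 and -0.25 in its other probe sets. The stem cell factor receptor gene Kit differed by -0.68, with -0.045 in its other probe set. The VEGF-C receptor gene Flt4 differed by 0.67, with 0.24 in its other probe set. The other MAP kinases and their activators, which include the p38 and JNK substrates of DUSP1, had a median of 0.13 over 8 of 11 genes, 5 higher and 3 lower. Mapk12 (0.49) and Mapk11 (0.35), which encode p38 kinases, Map2k3 (-0.33), which encodes an activator of p38, and Mapk8 (0.25), which encodes a JNK kinase, had the largest differences, all within 2-fold in the brightest probe set. Mapk8 was higher in all 5 of its probe sets. A Mapk12 probe set below the filter level had the opposite sign, at -0.17, and the other Map2k3 probe set differed by only -0.030.

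Other dual-specificity phosphatase genes, a list not restricted to phosphatases of ERK, also differed in both directions. Of 17 further dual-specificity phosphatase genes, 15 were analysed, 5 higher and 10 lower on the Snail1 KO array, with a median of -0.15. Dusp14, an atypical phosphatase, was at 7.59 on the Snail1 KO array and 8.62 on the WT array, 2.05-fold lower. Thus 1 of the 15 was at least 2-fold lower, against 1.84% of all analysed genes, and the other 14 were within 2-fold. Dusp2, a nuclear phosphatase of immune and stress responses, was at 10.77 on the Snail1 KO array and 10.04 on the WT array, a difference of 0.73. Dusp3, which acts on ERK and JNK, had a difference of 0.45, although its dimmest probe set gave -0.29. Dusp19 had one of -0.43, with all 3 of its probe sets lower.

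Of 17 other negative regulators of receptor and RAS signalling, 16 were analysed, 11 higher and 5 lower on the Snail1 KO array, with a median of 0.089 and none past 2-fold. Errfi1, a feedback inhibitor of the EGF receptor, was at 8.54 on the Snail1 KO array and 9.46 on the WT array, 1.89-fold lower, while a dimmer probe set differed by 0.033. Il17rd, which encodes the FGF pathway inhibitor SEF, differed by 0.59, Tob1, an antiproliferative protein, by 0.50, and Spred3, the third Spred gene, by -0.57. Spred3 therefore differed by more than the brightest probe sets of Spred1 and Spred2.

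The largest differences near the ERK circuit lay among its other responsive transcripts, outside the feedback genes. Of 21 listed, 18 were analysed, 7 higher and 11 lower on the Snail1 KO array, with a median of -0.21. Of the 18, 3 were at least 2-fold lower, against 1.84% of all analysed genes, and 0 at least 2-fold higher, against 0.971%. The list was drawn up with earlier results of these data known, so these shares are descriptive and an excess was not tested. Raising the filter level from the 40th to the 60th percentile removed Ereg and left 2 of 16 genes at least 2-fold lower. Of all analysed genes 48.9% were higher. Ereg, which encodes the EGF receptor ligand epiregulin, was at 3.83 on the Snail1 KO array, below the filter level, and 6.24 on the WT array, so it entered the list through its WT value and the size of its difference is not exact. Hbegf, another ligand of that receptor, was at 7.70 on the Snail1 KO array and 9.90 on the WT array, 4.62-fold lower, with 4.45-fold in its other probe set. Egr1, an immediate early transcription factor, was 2.89-fold lower. Fosl1, an AP-1 subunit, was 1.91-fold lower, with 1.49-fold in its other, dimmer probe set. In their brightest probe sets, Hbegf, Egr1 and Fosl1 were lower by more than Dusp5 and Spry2, the feedback genes with the largest differences in that direction. The dimmer Fosl1 probe set was lower by less than Dusp5 (1.57-fold). The following genes of the list were named after their values were seen. Phlda1 and Fos, an AP-1 subunit, differed by -0.87 and -0.75, while Ccnd1 (cyclin D1), Etv4 and Etv5, which encode ETS factors, and Epha2 differed by 0.03, -0.14, 0.33 and 0.16.

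**Figure D3:**
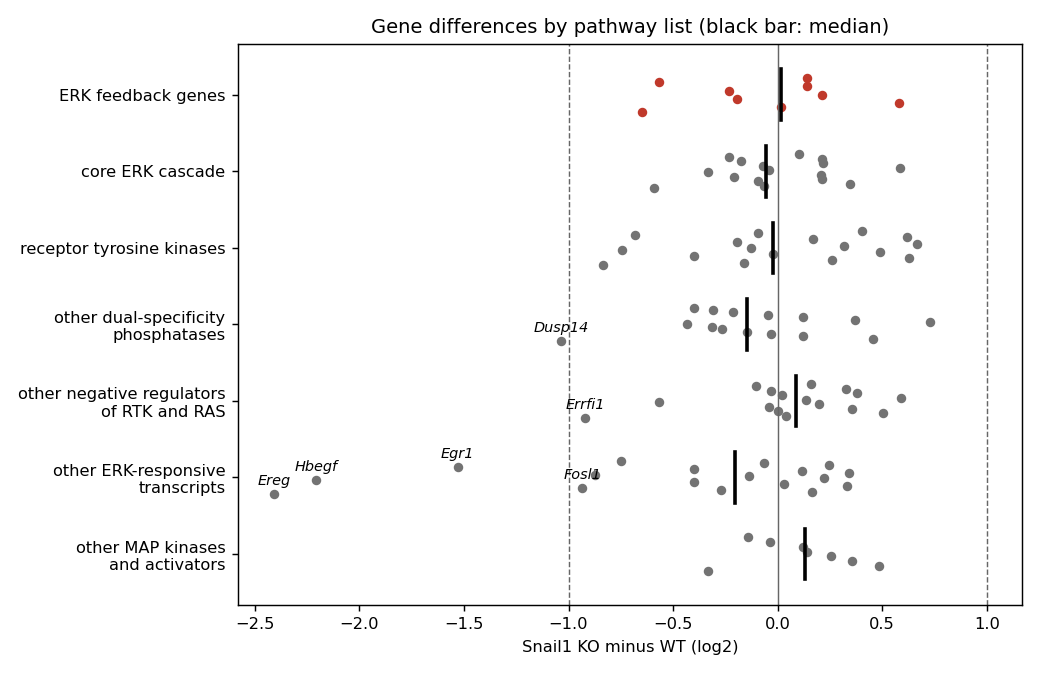
Log2 difference, Snail1 KO minus WT (horizontal axis), of each analysed gene in its brightest probe set, by list (rows). Points are genes, black bars list medians and dashed lines 2-fold. The feedback genes in red lie between -0.65 and 0.58, whereas Ereg, Hbegf and Egr1 among the other ERK-responsive transcripts lie left of the lower dashed line.

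The arrays' median log2 values over probe sets other than controls were 4.70 for Snail1 KO and 4.66 for WT. All 10 endothelial markers checked were above the filter level, with a summed linear signal of 26240 on the Snail1 KO array and 27571 on the WT array and none past 2-fold. Of 7 smooth muscle and pericyte markers, 5 were above the filter level. Of these 5, 2 (Tagln and Acta2) were at least 2-fold lower, against 1.84% of all analysed genes. The 7 markers had a summed signal of 857 on the Snail1 KO array and 3378 on the WT array. Most of both sums came from Acta2 and Tagln, the brightest. Of the other 3 above the filter level, Cnn1 differed by -0.81, Pdgfrb by -0.40 and Cspg4 by 0.10. Myh11 and Rgs5, below it, differed by -0.91 and -0.065. Fibroblast markers summed to 3560 on the Snail1 KO array and 3665 on the WT array over 6 genes, with 4 above the filter level. Most of that sum came from Thy1 and Dcn, the brightest, which differed by -0.062 and 0.17. Col3a1 was at 6.33 on the Snail1 KO array and 7.33 on the WT array. Its difference of -0.998 was just short of 2-fold, with 0.22 in a probe set below the filter level. Leukocyte markers summed to 231 on the Snail1 KO array and 327 on the WT array, with 3 of 6 above the filter level, all 3 lower, and Ptprc, Tyrobp and Itgam below it. Of the 3 above it, Coro1a, which encodes a leukocyte coronin, was 3.89-fold lower, with 3.12-fold in its next probe set. A Coro1a probe set below the filter level differed by 0.23. Cd68 and Csf1r differed by only -0.075 and -0.25, within the robust SD. Epithelial markers summed to 93.5 on the Snail1 KO array and 140 on the WT array. Of these, 3 of 5 were above the filter level, all 3 lower, and Cdh1 and Cldn6 were below it. The keratin gene Krt18 was 2.45-fold lower, whereas Epcam and Krt8 differed by only -0.10 and -0.16, within the robust SD. The part of these cell types in the differences of the feedback genes was not tested. In RNA from a whole culture, fewer cells of a type and less RNA per cell cannot be told apart.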

How the data were processed

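Total RNA (250 ng per sample, per the labels' protocols) was hybridised to 1 Affymetrix array per group. The deposited table holds log2 expression per probe set. The submitters' processing notes name RMA and affy, and the sources used here give no versions. RMA applies quantile normalization, which hides changes of total mRNA, and compresses differences of dim probe sets. No detection calls were used, and the number of arrays limits the precision.

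Groups came from sample titles. Probe sets with 1 gene symbol in GEO's platform annotation (34945) were used, each gene by the one with the highest mean. Genes with a mean above the 40th percentile were analysed. Differences were described by size, mainly at 2-fold, with no p-value. The robust SD is the scaled median absolute deviation. The counting was checked on simulated data. Python 3.11.15 and pandas 2.3.3 were used. Members and lists were chosen with earlier results of these data known, so shares of a list set beside those of all analysed genes are descriptive only. Beside the 9 genes and Snai1, the up to 4 analysed genes of each pathway list with the largest difference were named, and others are named as chosen later or as markers. Alternatives were the mean of a gene's probe sets, its least different probe set, centring, other filters and thresholds, and leaving out probe sets that may bind several transcripts.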

Additional observations from a re-analysis of the deposited data

How the results depend on the processing

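No paired analysis was possible because each group holds 1 array, and for the same reason no array could be left out. The 9 genes' differences were recomputed under 4 alternatives, but most of these values had no room to move. Leaving out probe sets that may bind several transcripts gave the same value for all 9 genes, centring moved every gene by -0.038, and the choice of probe set could move 8 values, of the 4 genes with several probe sets. These 8 stayed within 0.32, the robust SD, of the value given. The sign turned in 4 of all 36 values: Spred1 with the mean of its probe sets (0.058) and with its least different one (0.079), Spry4 with the mean (-0.046) and Spry1 with centred arrays (-0.021), which also turned the median of the 9 genes (-0.021). At 1.5-fold, 1 of the 9 was lower on the Snail1 KO array. When each gene was the average of its probe sets, 77 genes in all were at least 2-fold higher, against 125. The medians of the 6 pathway lists moved by less than 0.32. That of the core ERK cascade turned positive under 2 of 6 alternatives (0.092 with the mean of probe sets, 0.028 without those that may bind several transcripts). That of the receptor tyrosine kinases did so under 4 of 6 (0.033 to 0.20), so neither has a direction. Those 4 receptor medians covered between 14 and 18 genes, against 17 in the main setting, so they are not over the same genes. Dim probe sets, such as those of Spry4, limit what can be seen.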

Other observations

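Ligands of the receptors upstream of these inhibitors were listed after Ereg and Hbegf had been seen, and are given as values. Of 11 EGF family ligand genes, 4 were analysed, and since Ereg and Hbegf prompted the list no count is read from it. Of the other analysed genes, Tgfa, which encodes transforming growth factor alpha, was at 8.90 on the Snail1 KO array and 8.81 on the WT array, and its other 2 probe sets differed by 0.48 and -0.26. The neuregulin gene Nrg2 was at 4.71 on the Snail1 KO array and 5.04 on the WT array. Areg was not analysed here, and Egf, Btc, Epgn, Nrg1, Nrg3 and Nrg4 were below the filter level. Of 22 FGF genes, 7 were analysed, 3 higher and 4 lower, with a median of -0.12. Fgf13, which encodes an FGF-related protein that stays inside the cell, was at 8.33 on the Snail1 KO array and 7.28 on the WT array, 2.07-fold higher, with 0.30 in a dimmer probe set. Fgf2, known as an endothelial growth factor, was below the filter level.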
